A study of Mus musculus with 6 samples.

Results

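This account concerns 37 chaperone and unfolded protein response genes in cold-exposed mouse brown fat, out of 54385 identifiers in the deposited table. They were chosen by symbol as the folding machinery and stress sensors of the endoplasmic reticulum (ER) and the heat shock proteins of cytosol and mitochondria. All 37 had an entry, and all 37 passed the filter on low counts and were among the 14767 genes tested. Polyadenylated RNA was measured in whole interscapular brown fat in 6 samples from C57BL/6N mice; whether each sample is 1 animal is not stated in the labels. In 3 knockout samples (Adcy3-FL/FL/Adipoq-wt/cre) the floxed Adcy3 alleles, which encode adenylyl cyclase 3, were combined with Cre driven by the Adipoq promoter, which is active in adipocytes. In 3 control samples (Adcy3-FL/FL/Adipoq-wt/wt, labelled WT) the same floxed alleles were present without Cre. All mice of both groups were fed chow for 20 weeks and kept at 5 °C for 24 hours before collection; the design text gives 20 weeks as the age, names the inguinal depot and counts 4 replicates per group, whereas the sample labels give interscapular fat and 3. With no mice kept warm, the effect of cold itself was not measured, and the sources used here do not state the sex of the mice.

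Chaperones bind unfolded or partly folded proteins and keep them from clumping. In the ER, unfolded proteins draw the chaperone BiP (Hspa5) away from the membrane sensors IRE1 (Ern1), PERK (Eif2ak3) and ATF6. IRE1 then splices Xbp1 messenger RNA, and XBP1 and ATF6 induce chaperones and the machinery that exports misfolded proteins for degradation. In the cytosol the transcription factor HSF1 does the corresponding work after heat or other protein damage and induces Hspa1a, Hspa1b, Dnajb1 and other heat shock genes. Brown adipocytes in the cold make much protein, lipid and heat, and the ER degradation factor Sel1l is known to be needed for normal brown fat function in mice.

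Promoter letters, which did not enter the choice of the genes, were searched for known elements. Such elements are known from genes of these pathways, so finding them here is not independent support for the grouping. RefSeq promoters (GRCm38.p6, 250 bases before to 50 after a start) were matched for 30 of the 37. The ER stress element, the site recognised by ATF6 with NF-Y, was searched as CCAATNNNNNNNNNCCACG on both strands. It was present in 7 of the 11 ER folding genes with a promoter, in 1 of 4 ER degradation genes and in none of the other 15 genes with one. Of all 27025 genes with a promoter entry, 37 (0.137%) held it. The 9 matches are shown because they recur in the ER folding group; each is read 5′ to 3′ in the direction of the element, with its fixed letters in capitals.
Hspa5, chr2:34772025-34772043, plus strand: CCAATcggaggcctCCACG
Hsp90b1, chr10:86705638-86705656, minus strand: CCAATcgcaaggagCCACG
Hsp90b1, chr10:86705533-86705551, plus strand: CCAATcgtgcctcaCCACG
Calr, chr8:84847075-84847093, plus strand: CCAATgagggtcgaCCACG
Canx, chr11:50325800-50325818, minus strand: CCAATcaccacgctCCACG
Pdia6, chr12:17266491-17266509, plus strand: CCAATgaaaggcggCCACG
Dnajc3, chr14:118937827-118937845, plus strand: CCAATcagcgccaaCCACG
Creld2, chr15:88819520-88819538, minus strand: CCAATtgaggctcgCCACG
Syvn1, chr19:6046532-6046550, plus strand: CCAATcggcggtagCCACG
All 9 lay upstream of the start, with first bases between 212 and 44 bases before it, 6 of them in the direction of the gene and 3 against it. The spacer of 9 bases differed from gene to gene while the ends were the letters searched for.

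The heat shock element, the repeat bound by HSF1, was searched as GAANNTTCNNGAA on both strands. It was found in Hsph1, Chordc1, Hspd1 and Hspe1, 4 of the 30 genes, and in 0.662% of all genes with a promoter. Hspd1 and Hspe1, which encode the mitochondrial chaperonin and its lid, lie head to head on chromosome 1. In the GENCODE annotation, whose starts differ from those of RefSeq, they share 112 exon bases on opposite strands. Between their RefSeq starts lies the element, which is the same in both promoters. It consists of a pair of overlapping matches, in capitals in the 250 bases before the Hspe1 start (chr1:55087898-55088147, plus strand).
Hspe1: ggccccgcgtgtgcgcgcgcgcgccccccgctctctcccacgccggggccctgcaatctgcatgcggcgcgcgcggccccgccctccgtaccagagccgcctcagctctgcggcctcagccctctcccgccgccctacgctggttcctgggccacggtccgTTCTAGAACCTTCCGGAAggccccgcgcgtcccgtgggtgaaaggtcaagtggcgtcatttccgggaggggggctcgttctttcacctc
The 8 other cytosolic genes with a promoter, Hspa1a and Hspa1b included, did not hold these exact letters. The full cyclic AMP response element, TGACGTCA, was in none of the 30 promoters and in 2.03% of all genes. TGACGTG, searched on both strands as the core of XBP1 and ATF6 sites, was in Hspa5 alone of the 30 (2.22% of all genes). A match is a description of letters, and no binding was measured here.

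**Figure D1:**
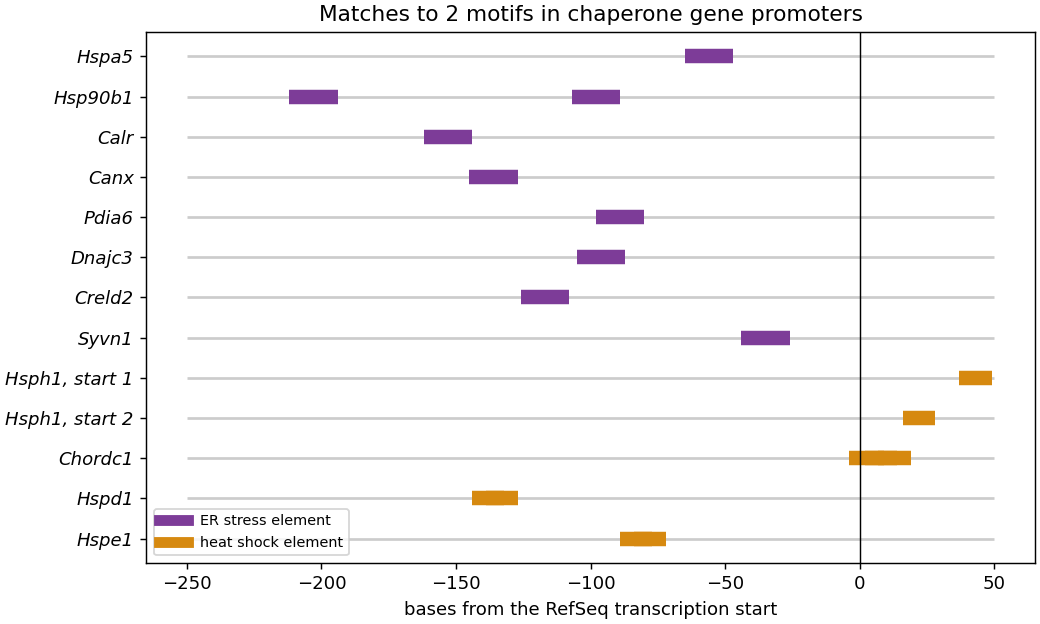
Position of each match to the ER stress element (purple) and the heat shock element (orange) in the RefSeq promoters of the chaperone genes that hold one; the x axis gives bases from the transcription start and each grey line is 1 promoter of 250 bases before to 50 after the start. Hsph1 has 2 starts. All ER stress elements lie upstream of the start, whereas the heat shock matches of Hsph1 and Chordc1 reach past it.

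Hspa1a and Hspa1b, the pair of inducible Hsp70 genes, are near copies in their promoters as well as in their transcripts. Their 250 bases before the start differed at 3 positions, in capitals in both sequences (Hspa1a, chr17:34972157-34972406; Hspa1b, chr17:34959239-34959488; both minus strand).
Hspa1a: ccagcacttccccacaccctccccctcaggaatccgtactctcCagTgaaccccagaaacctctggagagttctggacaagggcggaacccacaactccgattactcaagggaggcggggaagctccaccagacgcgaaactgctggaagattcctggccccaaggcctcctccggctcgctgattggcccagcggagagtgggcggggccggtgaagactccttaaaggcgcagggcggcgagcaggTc
Hspa1b: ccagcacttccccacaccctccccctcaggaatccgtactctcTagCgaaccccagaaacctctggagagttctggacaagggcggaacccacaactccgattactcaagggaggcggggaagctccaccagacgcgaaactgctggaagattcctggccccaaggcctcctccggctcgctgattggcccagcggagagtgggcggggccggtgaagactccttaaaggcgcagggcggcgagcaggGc
Their transcripts matched at 99.2% identity over 2201 bases, so reads were divided between them by estimation and the level of each is uncertain. They are shown because they gave the widest spread between libraries of the 37 genes, as described below.

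The libraries held 13956786 to 17538044 estimated counts each, and 3 counts corresponded to 0.172 to 0.203 CPM (counts per 1000000 counts, scaled by TMM factors). Adcy3 was at 21.9, 30.3 and 24.1 CPM in the knockouts, against 135, 169 and 158 CPM in the controls, so all libraries matched their labels for the targeted gene. Ucp1, which defines brown fat, was at 7111 to 7592 CPM in knockouts and 5398 to 6008 CPM in controls, and Adipoq, which marks adipocytes, at 295 to 347 CPM and 287 to 317 CPM. Knockout library 1 stood apart from knockout libraries 2 and 3. The 20 skeletal muscle markers summed to 10046, 714 and 96.0 CPM in knockout libraries 1 to 3, against 15750 to 21674 CPM in controls, and all 20 had a negative log2 fold change. The 7 fibroblast markers summed to 289 to 475 CPM in knockouts and 507 to 766 CPM in controls. The markers of B and plasma cells, secretory cells rich in ER, summed to 12.1 to 36.0 CPM in knockouts and 21.0 to 26.6 CPM in controls. The part of these cell types in the results was not tested unless a value below bears on it. In bulk tissue, fewer cells of a type and less RNA per cell cannot be told apart.

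None of the 37 genes changed between the genotypes past the threshold. Knockout was compared with control by edgeR's quasi-likelihood test over all 14767 genes, with a Benjamini-Hochberg adjusted p under 0.05 as the call. In that test 0 members rose and 0 fell, where 9 genes in all (0.0609% of those tested; 0.0271% higher and 0.0339% lower) were called; the smallest adjusted p of a member was 0.517, for Hspe1. At an unadjusted p under 0.05 the count was also 0 of 37, against 10.5% of all genes tested. DESeq2's Wald test and limma-voom called 0 members too, against 2.08% and 0.223% of all genes tested. In those fits 1 and 0 members had an unadjusted p under 0.05, against 10.3% and 12.1% of all genes. Of the 37 log2 fold changes 30 were above 0 and 7 below, against 51.7% and 48.3% of all genes tested, and their median was 0.10, against 0.01 for all genes. The values ran from -0.33 for Xbp1 to 0.36 for Hspb1. Without knockout library 1, 21 of the 37 were above 0 and the median was 0.03.

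The estimates were narrow for most of the genes. The 95% interval of the difference lay inside a 2-fold change in both directions for 32 of the 37, against 70.0% of all genes tested, and inside a 1.5-fold change for 24 of the 37, against 38.0%. The 5 genes whose interval reached past 2-fold were Sdf2l1, Hspa1a, Hspa1b, Hspb1 and Dnajb1, and the spread between their own replicates was wide. The groups did not overlap for 2 genes: Edem1 and Hspd1 were higher in every knockout library than in every control (7.63% of all genes tested), and none of the 37 was lower in every knockout (10.8%).

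**Figure D2:**
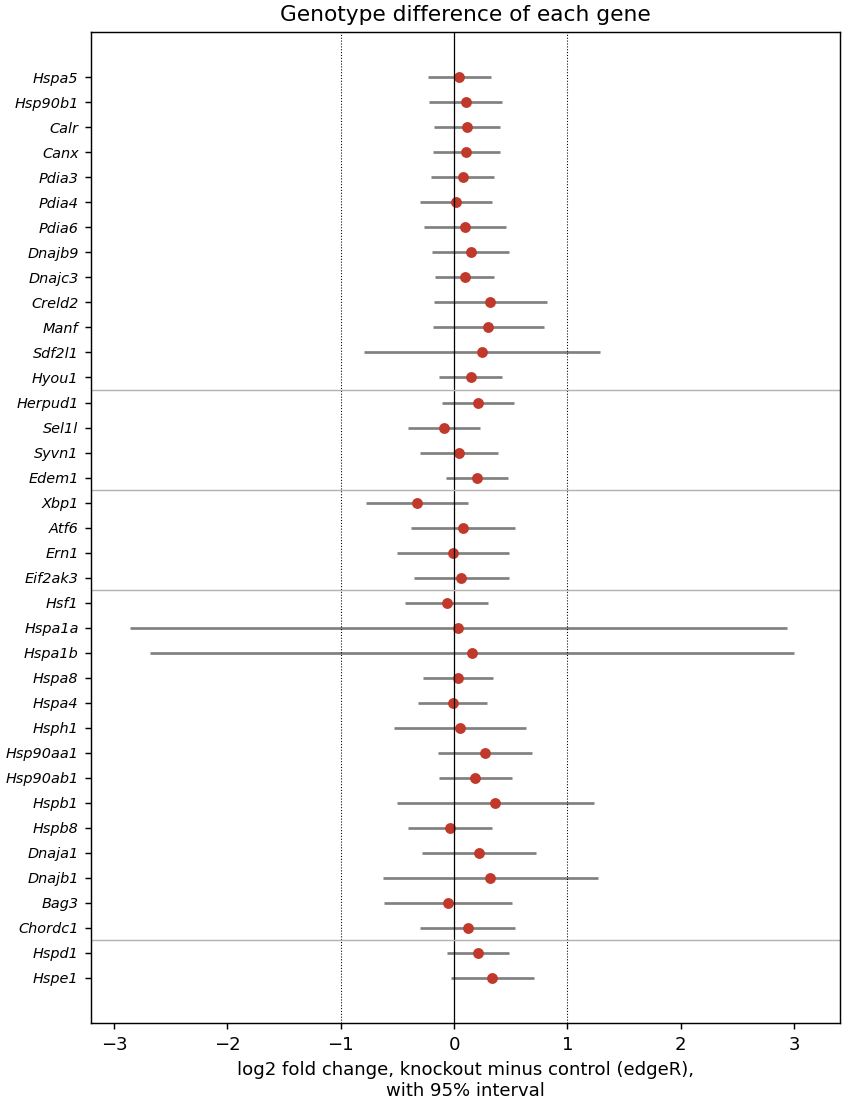
Log2 fold change, knockout minus control, of each of the 37 genes with its 95% interval from edgeR (x axis), grouped from top to bottom as ER folding, ER-associated degradation, stress sensors with Xbp1, cytosolic heat shock and mitochondrial genes. Dotted lines mark a 2-fold change. All intervals include 0, and 5 of them reach past a dotted line.

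The 13 ER folding genes were close to level between the genotypes. All 13 had a log2 fold change above 0, from 0.02 to 0.32 with a median of 0.11, and none passed. Hspa5, the Hsp70 of the ER and the gene most used as a readout of ER stress (ENSMUSG00000026864, GRCm38 chromosome 2, 34771970 to 34777547, plus strand), was at 219, 187 and 208 CPM in knockout libraries and 191, 208 and 196 CPM in control libraries. The groups overlapped, and the log2 fold change was 0.04 ± 0.12 (SE, 95% interval -0.23 to 0.32; edgeR adjusted p = 0.939). Calr, the lectin chaperone calreticulin, had the highest level per length of the group, at 71.3 ± 7.82 CPM per kilobase of merged exons in knockouts and 65.8 ± 1.51 in controls (SD, n = 3 each). It was at 230, 186 and 200 CPM in knockout libraries and 185, 191 and 193 CPM in controls. Its membrane-bound relative calnexin (Canx) was at 232, 267 and 278 CPM in knockout libraries and 260, 236 and 225 CPM in controls, so knockout library 1 was the highest for the soluble protein and the lowest of its group for the membrane protein. Hsp90b1, the Hsp90 of the ER, was at 175 ± 25.1 CPM in knockouts and 163 ± 9.96 CPM in controls (SD, n = 3 each), a log2 fold change of 0.10 with a 95% interval of -0.22 to 0.42. Hsp90b1, Pdia3, Manf and Syvn1 share exon bases with a gene on the opposite strand, and since counting is not stated to use strand, reads there cannot be assigned to 1 gene.

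Disulfide isomerases, which form and rearrange disulfide bonds, lay as near to 0. Pdia3 was at 113, 92.9 and 100 CPM in knockout libraries and 95.5, 96.5 and 98.6 CPM in controls, Pdia6 at 84.8, 61.2 and 65.3 CPM against 61.4, 63.0 and 73.7 CPM, and Pdia4 at 20.8, 19.6 and 17.1 CPM against 18.4, 20.3 and 18.1 CPM. For Pdia6 only knockout library 1 was above every control, and for Pdia3 knockout libraries 1 and 3 were. The cochaperones that stimulate BiP's ATPase, Dnajb9 (log2 fold change 0.15 ± 0.15, SE) and Dnajc3 (0.09 ± 0.11), and the nucleotide exchange factor Hyou1 (0.14 ± 0.12) had overlapping groups.

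The smaller ER proteins known to respond strongly to ER stress, Creld2, Manf and Sdf2l1, had the largest differences of the group, and each rested on knockout library 1. Creld2 was at 11.98, 8.41 and 7.60 CPM in knockout libraries and 6.48, 7.62 and 8.31 CPM in controls (log2 fold change 0.32 ± 0.22, SE; edgeR adjusted p = 0.652). Manf, a secreted ER protein, was at 42.4, 25.4 and 29.8 CPM in knockouts and 25.0, 23.1 and 31.1 CPM in controls (0.30 ± 0.21). Sdf2l1, a partner of BiP, was low throughout, at 4.33, 1.89 and 1.48 CPM in knockouts and 1.71, 1.83 and 2.95 CPM in controls (0.25 ± 0.45). For 9 of the 13 ER folding genes knockout library 1 was the highest of the knockouts, against 45.6% of all genes tested. Without that library the values were 0.10 for Creld2, 0.07 for Manf and -0.35 for Sdf2l1, and the median of the 13 was 0.03. Summed marker levels were also highest of the knockouts in that library for muscle and fibroblasts, for B and plasma cells (36.0, 12.1 and 12.8 CPM in the knockouts, against 26.5, 26.6 and 21.0 CPM in the controls) and for macrophages (137, 66.4 and 61.5 CPM, against 124, 77.7 and 146 CPM). General and white adipocyte markers were highest of the knockouts there as well. General adipocyte markers were at 15205, 13362 and 14628 CPM in knockout libraries 1 to 3, against 12891, 12118 and 12874 CPM in controls. White adipocyte markers were at 62.7, 56.1 and 56.8 CPM in knockouts, against 112, 86.2 and 117 CPM in controls. Endothelial markers were lowest of the knockouts in knockout library 1 (554, 734 and 658 CPM), and brown adipocyte markers lay between (11486, 10873 and 11865 CPM). The part of these cell types in these results was not tested.

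**Figure D3:**
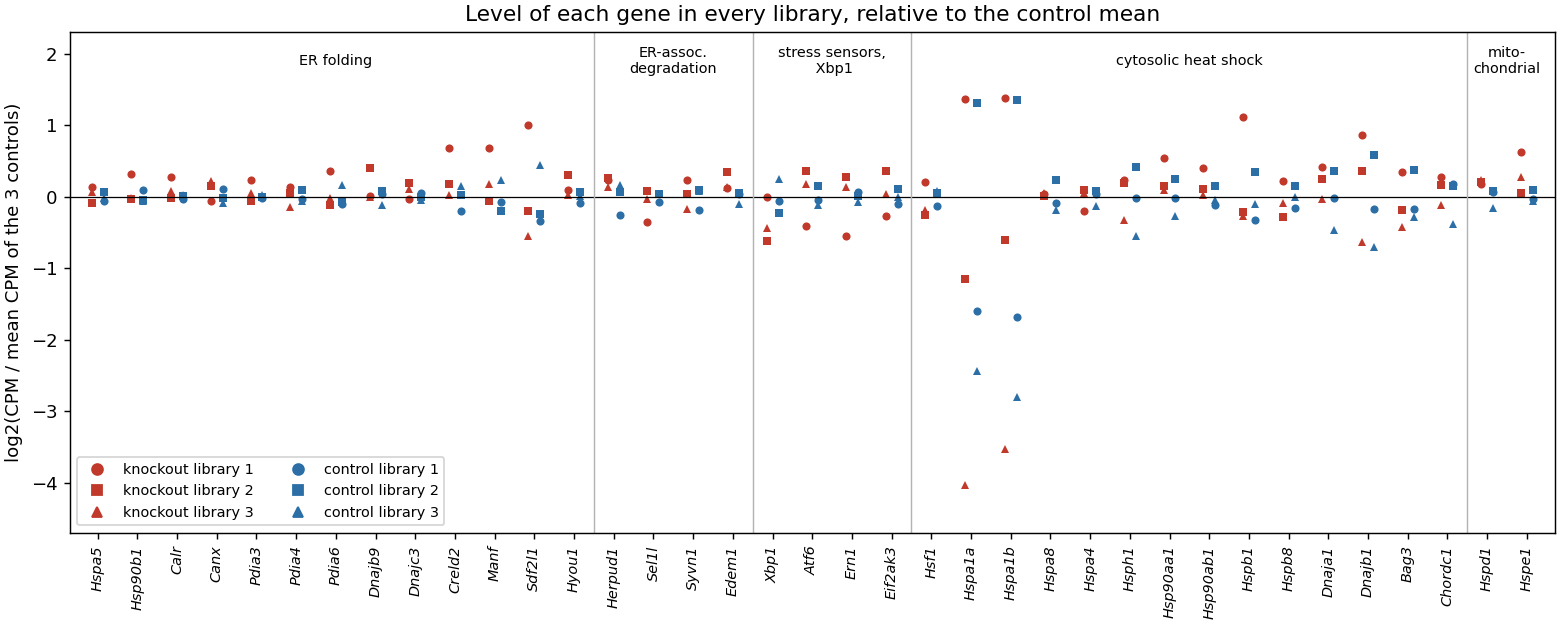
Level of each of the 37 genes in every library as log2 of CPM over the mean of the 3 controls (y axis), knockouts in red to the left of controls in blue; the marker shape gives the library number. Of the 222 points 196 lie within 0.5 of the control mean, while Hspa1a and Hspa1b spread widely in both genotypes and knockout library 1 is high for Creld2, Manf, Sdf2l1, Hspb1 and Hspe1.

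Genes of ER-associated degradation, which pull misfolded proteins out of the ER for the proteasome, were not called. Sel1l, the adaptor of the ubiquitin ligase complex, was at 44.7, 60.1 and 55.6 CPM in knockout libraries and 53.9, 58.5 and 58.4 CPM in controls, a log2 fold change of -0.09 ± 0.14 (SE). Its ligase Syvn1 was at 35.0, 30.8 and 26.5 CPM against 26.2, 31.8 and 31.7 CPM. Herpud1, which assembles the complex and is induced by ER stress, was at 74.7, 76.4 and 69.7 CPM in knockouts and 53.2, 66.7 and 71.1 CPM in controls. It had the highest level per length of the 4 genes (31.5 ± 1.5003 CPM per kilobase in knockouts and 27.3 ± 4.01 in controls; SD, n = 3 each) and its difference of 0.21 ± 0.14 (SE) rested on control library 1, without which it was 0.08. The median of the 4 genes was 0.12, and 0.01 without control library 1. Edem1, which extracts misfolded glycoproteins from the folding cycle, was at 53.9, 62.8 and 54.3 CPM in knockouts and 51.1, 51.3 and 46.4 CPM in controls. Its groups did not overlap, but the log2 fold change of 0.20 ± 0.12 (SE, 95% interval -0.07 to 0.47) did not pass (edgeR adjusted p = 0.604).

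Among the sensors and Xbp1, Xbp1 had the lowest log2 fold change of all 37 genes without passing. It was at 37.2, 24.3 and 27.6 CPM in knockout libraries and 35.7, 31.9 and 44.2 CPM in controls, with a log2 fold change of -0.33 ± 0.19 (SE, 95% interval -0.77 to 0.12; edgeR adjusted p = 0.609). Knockout libraries 2 and 3 lay below every control and knockout library 1 among them. Without knockout library 1 the difference was -0.52 and the adjusted p 0.103, the smallest of any member under any of the alternatives tried. In that fit Xbp1 was 1 of 2 members with an unadjusted p under 0.05 (16.6% of all genes tested there). The counts are per gene, so spliced and unspliced Xbp1, which report IRE1 activity, cannot be told apart. The 3 sensors ran the other way in the same libraries. Atf6 was at 40.9, 70.1 and 61.5 CPM in knockouts and 52.8, 60.3 and 50.4 CPM in controls, Ern1 at 8.46, 14.9 and 13.5 CPM against 12.96, 12.4 and 11.7 CPM, and Eif2ak3 at 10.8, 16.7 and 13.3 CPM against 12.1, 13.98 and 12.9 CPM. For all 3, knockout library 1 was the lowest and knockout library 2 the highest of the 6 libraries. Their log2 fold changes were 0.08 ± 0.20, -0.01 ± 0.21 and 0.06 ± 0.18 (SE). Per length, Atf6 was at 6.23 ± 1.63 CPM per kilobase in knockouts and 5.90 ± 0.56 in controls, and the other sensors were lower, with Ern1 at 1.501 ± 0.41 and 1.51 ± 0.08 CPM per kilobase in knockouts and controls (SD, n = 3 each) and Eif2ak3 at 2.26 ± 0.49 and 2.16 ± 0.15.

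Among the cytosolic heat shock genes, Hspa1a and Hspa1b differed far more between libraries of the same genotype than between the genotype means. Hspa1a was at 205, 35.9 and 4.87 CPM in the 3 knockouts, against 26.4, 198 and 14.7 CPM in the 3 controls. Hspa1b was at 256, 64.5 and 8.49 CPM in the knockouts and 30.6, 250 and 14.1 CPM in the controls. The highest Hspa1a library was thus 42.1 times the lowest among knockouts and 13.4 times the lowest among controls, while the group means were 82.0 ± 108 and 79.8 ± 103 CPM (SD, n = 3 each). The 2 genes summed, a value chosen after seeing the data since their reads are shared, were at 461, 100 and 13.4 CPM in knockouts and 57.01, 448 and 28.9 CPM in controls. Their summed log2 fold change was 0.11 with a 95% interval of -2.76 to 2.97, so a several-fold difference in either direction was not detectable with these replicates.

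Other heat shock genes were high in the same libraries. Leaving out the Hspa1 pair, 8 of 12 cytosolic members were highest in knockout library 1 among knockouts and in control library 2 among controls, where Hspa1a peaked, against 12.2% of all genes tested. They were Hsph1, Hsp90aa1, Hsp90ab1, Hspb1, Hspb8, Dnaja1, Dnajb1 and Bag3. For 5 of the 12 the full order of Hspa1a held in both groups (2.37% of all genes). This order was chosen from the Hspa1a values. In the same pair of libraries 2 of the 13 ER folding genes were highest, Hspa5 and Pdia4 (15.4%). So were 1 of the 4 ER degradation genes (Syvn1), 1 of the 2 mitochondrial genes (Hspe1) and 0 of the 4 sensors with Xbp1. Outside the 37 genes the share was 35.5% of the 31 other cytosolic chaperones, 27.3% of the 22 other ER degradation genes and 26.3% of the 19 other signalling genes, and it lay between 0% and 21.4% in the remaining 4 lists. Dnajb1, the Hsp40 that feeds substrates to Hsp70, was at 91.8, 64.4 and 32.6 CPM in knockouts and 44.8, 75.4 and 31.0 CPM in controls. Hspb1, a small heat shock protein, was at 433, 172 and 166 CPM against 160, 254 and 185 CPM. Hsph1, an exchange factor for Hsp70, was at 130, 126 and 88.4 CPM in knockouts and 110, 147 and 75.3 CPM in controls, and Dnaja1, another Hsp40, at 264, 235 and 193 CPM against 196, 255 and 144 CPM. Each was within the spread between replicates (edgeR adjusted p = 0.792 for Hspb1, 0.843 for Dnajb1, 0.784 for Dnaja1 and 0.968 for Hsph1). Time from killing to lysis, handling and body temperature at collection are not stated in the sources used here, and their part was not tested.

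**Figure D4:**
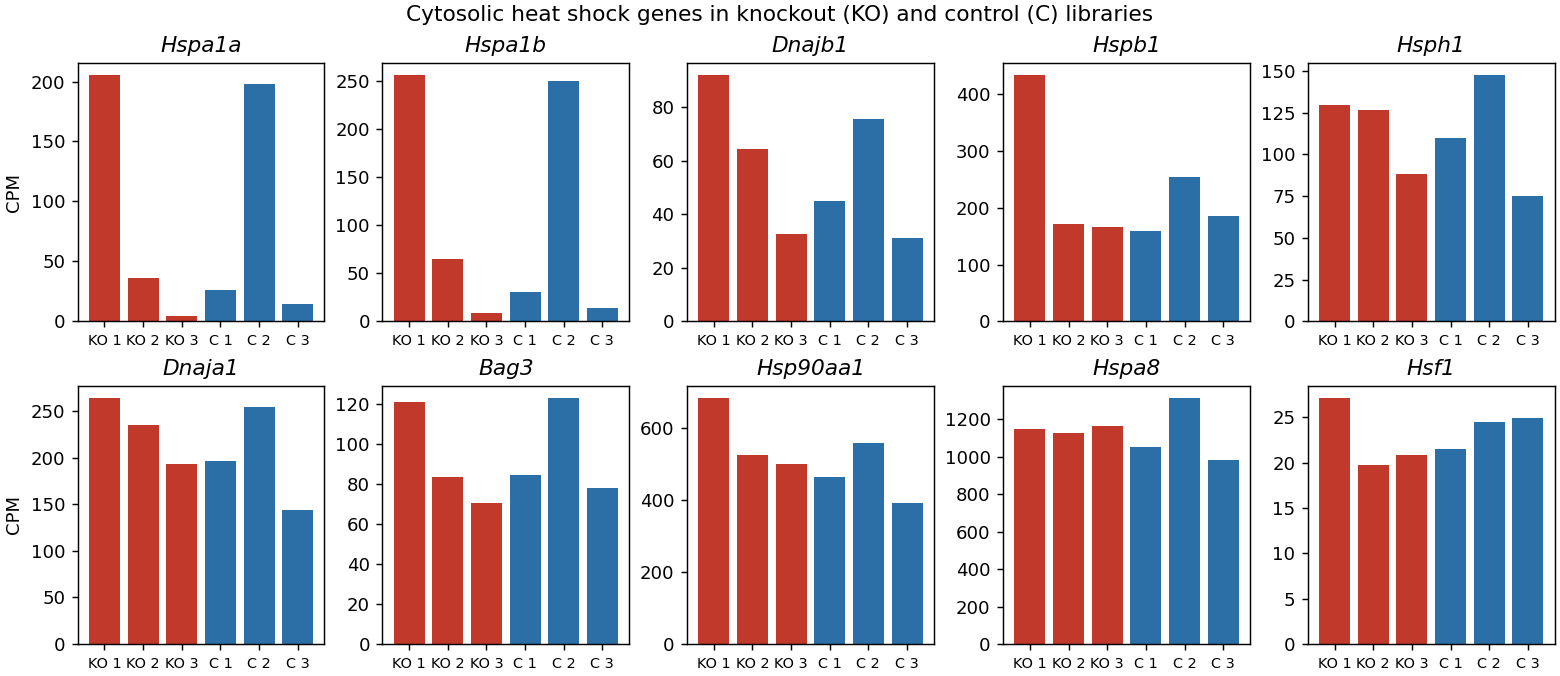
CPM of 10 cytosolic heat shock genes (y axis, from 0) in knockout libraries 1 to 3 (KO, red) and control libraries 1 to 3 (C, blue); each bar is 1 library. Hspa1a and Hspa1b are high in KO 1 and C 2, Dnajb1 and Bag3 peak in the same 2 libraries, and Hspa8 and Hsf1 vary less.

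The constitutive chaperones and the regulator Hsf1 had overlapping groups. Hspa8, the constitutive Hsp70, was at 1146, 1129 and 1162 CPM in knockouts and 1054, 1314 and 984 CPM in controls (log2 fold change 0.04 ± 0.13, SE). Hsp90ab1, the constitutive cytosolic Hsp90, had the highest level per length of all 37 genes, at 444 ± 62.3 CPM per kilobase in knockouts and 391 ± 38.3 in controls (SD, n = 3 each). It was at 1545, 1258 and 1195 CPM in knockouts and 1076, 1299 and 1140 CPM in controls (0.19 ± 0.14, SE). Its inducible partner Hsp90aa1 was at 682, 523 and 500 CPM against 462, 557 and 391 CPM (0.27 ± 0.18; edgeR adjusted p = 0.639). Hspa4 (-0.01 ± 0.13), an exchange factor for Hsp70, and the Hsp90 cochaperone Chordc1 (0.12 ± 0.18) overlapped between groups. Hsf1 itself was at 27.1, 19.8 and 20.8 CPM in knockouts and 21.5, 24.5 and 24.9 CPM in controls, where the HSF1 target Hspa1a varied far more; HSF1 is known to be switched on by modification of the protein, which RNA counts do not show.

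Some heat shock proteins are known mainly from muscle, and their values are given here beside the muscle markers. Hspb8 and Bag3, which together sort damaged muscle proteins for autophagy, were at 140, 98.5 and 113 CPM and at 121, 83.4 and 70.6 CPM in knockout libraries, against 108, 134 and 120 CPM and 84.5, 123 and 77.8 CPM in controls. In knockout library 3, where the 20 muscle markers summed to 96.0 CPM, Hspb8, Bag3 and Hspb1 were at 113, 70.6 and 166 CPM. Of the muscle chaperones listed outside the 37 genes, all 6 had a negative log2 fold change, with a median of -1.47. Cryab, the small heat shock protein alpha-B crystallin, was at 131, 18.7 and 13.7 CPM in knockouts and 160, 125 and 134 CPM in controls, and Hspb7 at 63.4, 1.76 and 0.30 CPM against 79.6, 69.3 and 68.9 CPM. The knockout values of 5 of the 6 genes ran in the same library order as the muscle markers (2902 of 14767 genes tested), and Unc45b was the exception. The part of the muscle markers in these results was not tested. Unc45b, the myosin chaperone, was at 39.9, 19.5 and 19.8 CPM against 52.4, 55.6 and 56.2 CPM, Hspb6 at 169, 20.3 and 13.7 CPM against 234, 203 and 168 CPM, and Hspb3 was under 3 CPM in all libraries. None of the 6 passed (smallest edgeR adjusted p = 0.226, for Unc45b).

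The mitochondrial chaperonin genes had the smallest p-values of the 37 without passing. Hspd1, which forms the folding chamber, was at 634, 649 and 658 CPM in knockout libraries and 587, 590 and 504 CPM in controls, so the groups did not overlap (log2 fold change 0.21 ± 0.12, SE; 95% interval -0.07 to 0.48; edgeR adjusted p = 0.595). Hspe1, the lid of that chamber, was at 173, 117 and 137 CPM in knockouts and 110, 120 and 108 CPM in controls (0.34 ± 0.16; 95% interval -0.03 to 0.71; edgeR adjusted p = 0.517). Control library 2 lay above knockout library 2, so the Hspe1 groups overlapped, and without knockout library 1 its difference was 0.18. Per length the chamber gene stood at 245 ± 4.72 CPM per kilobase in knockouts and 212 ± 18.6 in controls, and the lid gene at 96.7 ± 19.2 and 76.5 ± 4.33 (SD, n = 3 each). In the GENCODE annotation the genes overlap at their starts on opposite strands, and reads in those 112 bases cannot be assigned to 1 of them.

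**Figure D5:**
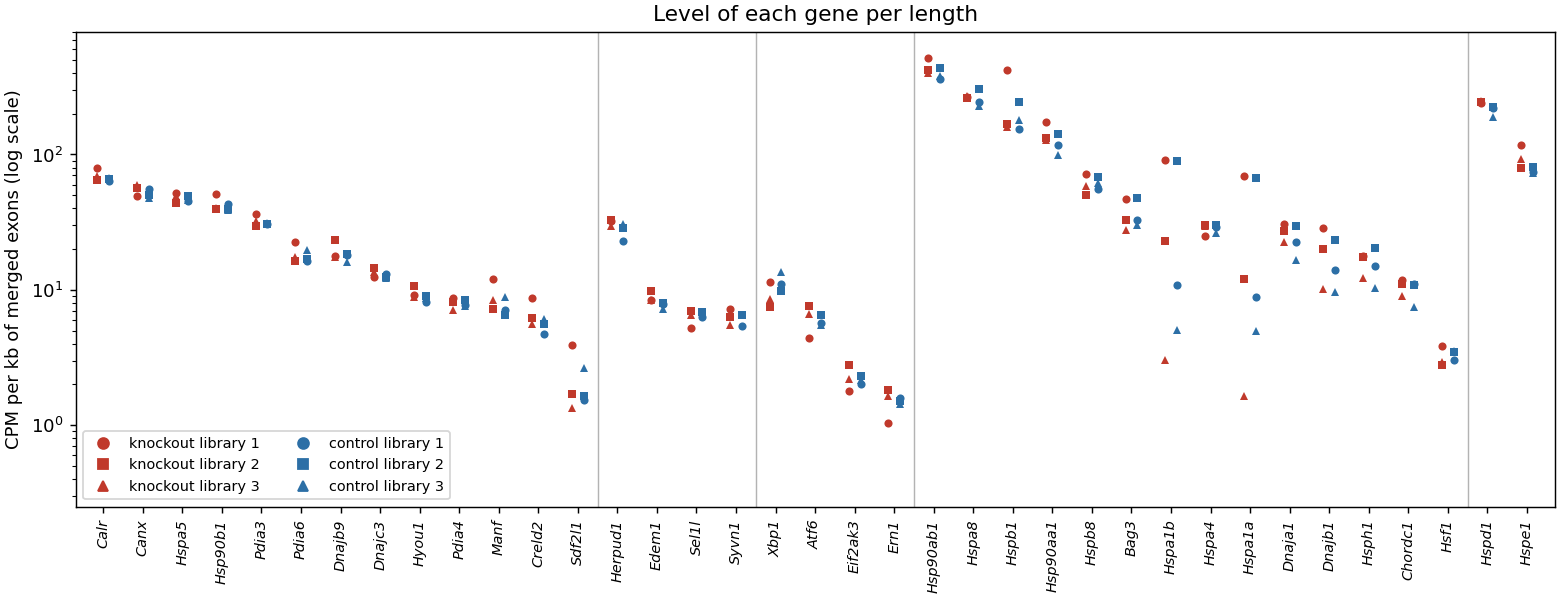
CPM per kilobase of merged exons (log axis) of the 37 genes in every library, ordered within each functional group by the control mean; knockouts are red and to the left, controls blue. Hsp90ab1, Hspa8, Hspb1 and Hspd1 are the most abundant per length, and Ern1, Eif2ak3 and Sdf2l1 the least.

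Genes of the same pathways outside the 37 were also not called. Of 145 such genes tested in 7 lists, 0 rose and 0 fell over all genes; 9 and 8 had an unadjusted p under 0.05 in the higher and lower direction (2.87% and 7.60% of all genes). In the list of 38 other ER folding genes the 3 with the smallest p were Cdnf, a relative of Manf (-0.47 ± 0.16, SE), Txndc12, an ER thioredoxin (0.41 ± 0.15), and Pdia5 (0.72 ± 0.26). In the list of 22 tested ER degradation genes they were Derl1, a channel subunit of the export machinery, Ufd1 and Edem2. Derl1 was at 342, 302 and 303 CPM in knockouts and 245, 250 and 251 CPM in controls, without overlap (0.35 ± 0.12, SE; edgeR adjusted p = 0.356). Ufd1 (0.24 ± 0.10) and Edem2 (0.30 ± 0.13) did not overlap either.

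Other signalling genes of the ER stress response gave differences in both directions. Wfs1, an ER membrane protein that restrains ATF6, was at 28.6, 15.1 and 17.6 CPM in knockouts and 31.8, 33.1 and 32.3 CPM in controls (-0.67 ± 0.23, SE; edgeR adjusted p = 0.368). Tmbim6, which limits calcium leak and IRE1 activity, was at 663, 510 and 584 CPM against 446, 462 and 467 CPM (0.35 ± 0.13; 0.407), and Creb3l2 differed by -0.29 ± 0.15. Of genes known to act after PERK, Atf4 (0.22 ± 0.18) and Ddit3 (0.40 ± 0.25) were named without regard to the naming rule. So were Trib3 (0.79 ± 0.43), Ppp1r15a (-0.02 ± 0.17) and Atf3 (-0.0040 ± 0.68) of the same list. PERK activity itself was not measured. Ddit3, the transcription factor CHOP, was at 18.8, 20.1 and 11.6 CPM in knockouts and 12.3, 15.7 and 10.1 CPM in controls, with overlapping groups (edgeR adjusted p = 0.618).

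Of 31 other cytosolic chaperones and cochaperones 20 had a log2 fold change above 0, and the 3 with the smallest p were lower. Hspa2, an Hsp70 known from testis, was at 3.05, 3.59 and 2.02 CPM in knockouts and 4.53, 5.27 and 5.76 CPM in controls (-0.85 ± 0.27, SE; edgeR adjusted p = 0.318). Dnajb5 was at 20.5, 6.78 and 5.94 CPM against 29.3, 26.2 and 21.5 CPM (-1.22 ± 0.44), with knockout library 1 nearest the controls as for the muscle markers, and Hspa1l differed by -0.90 ± 0.35. The 14 subunits of the cytosolic chaperonin and prefoldin, which fold actin and tubulin, had a median of 0.09; Cct3 (0.20 ± 0.13), Tcp1 (0.13 ± 0.11) and Cct2 (0.13 ± 0.12) had the smallest p, and all 14 were highest of the knockouts in library 1.

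The list of 15 other mitochondrial genes held chaperones, proteases and the transcription factor Atf5. Of these 13 (86.7%) had a log2 fold change above 0, against 51.7% of all genes tested, and the median was 0.17. Of the brown adipocyte markers all 10 were above 0, with a median of 0.31, and summed to 10873 to 11865 CPM in knockouts and 8412 to 9518 CPM in controls. All 8 general adipocyte markers were above 0 as well, with a median of 0.17. All 6 tested white adipocyte markers were below 0, with a median of -0.77. Of these, 5 were lower in every knockout than in every control (10.8% of all genes tested). The part of these marker lists in these values was not tested. Atf5, a transcription factor of the mitochondrial stress response, was at 500, 386 and 415 CPM in knockout libraries and 285, 324 and 346 CPM in controls, without overlap (0.45 ± 0.15, SE; edgeR adjusted p = 0.337). Grpel1, the exchange factor of mitochondrial Hsp70, was at 212, 178 and 179 CPM against 152, 154 and 141 CPM (0.35 ± 0.13), and its cochaperone Dnaja3 at 322, 324 and 352 CPM against 279, 285 and 254 CPM (0.29 ± 0.12). None passed.

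The 37 genes together took 0.591% to 0.732% of counts in knockouts and 0.589% to 0.716% in controls, so the ranges overlapped. By group, the cytosolic genes held most of this, at 0.363% to 0.4997% of counts in knockouts and 0.364% to 0.492% in controls, with knockout library 1 and control library 2 at the top. The spread between replicates, as the coefficient of variation of CPM, had a median over the 13 ER folding genes of 11.0% in knockouts and 6.20% in controls. Over the 14 cytosolic genes it was 17.8% in knockouts and 22.3% in controls, and over 9802 tested genes of at least 5 CPM it was 15.5% and 9.60%. Whether the spread differed between the genotypes was not tested.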

How the data were processed

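Each library is whole interscapular brown fat labelled as 1 sample, with 3 knockout and 3 control samples. The authors deposited estimated counts for each gene, fractional and not normalized, per the values in the file. The build GRCm38 and the tools Salmon, StringTie and edgeR are named in the submitters' processing notes. Versions, settings and strand use were not given in the sources used here. Counts were rounded to whole numbers. Symbols, positions and merged exon lengths came from GENCODE vM21 (54131 of 54385 identifiers had a symbol). Genes passing filterByExpr (minimum count 10, minimum total 15) were tested with edgeR 4.0.16 in R 4.3.3 (TMM factors, glmQLFit, glmQLFTest; two-sided; a single genotype term; Benjamini-Hochberg adjustment over all genes). The standard error is the log2 fold change over the root of F, and the 95% interval uses the test's degrees of freedom. CPM is per 1000000 of TMM-scaled counts; CPM per kilobase divides by merged exon length, which overstates the length of genes with long rare isoforms. The common biological coefficient of variation was 25.2%. Also tried were DESeq2 1.42.0, limma-voom (limma 3.58.1), RLE or upper-quartile factors, other filters, a block on replicate number, leaving out single libraries, and an adjusted p under 0.1. Transcripts were compared with blastn 2.17.0 (at least 95% identity over 300 bases): 8 of the 37 genes had such a copy, and 4 of them (Hspa1a, Hspa1b, Hspa8 and Dnaja1) a copy that was itself tested, so their levels are uncertain. Exon bases were shared with another tested gene by 7 of the 37. The fit was tested on simulated data.

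The members, lists and naming rule were chosen with earlier results of these data known. Named genes were all members, the 3 genes with the smallest p of each other pathway list, and a few tissue checks. Hspb7 and the genes said above to be named without regard to this rule were exceptions. The labels do not say that equal replicate numbers share an animal, litter or day, so the numbers were not taken to pair the samples. Deviations of libraries of equal number correlated at 0.0933, 0.117 and 0.0905, and those of unlike number at -0.0823 to -0.0058. These values do not decide whether the samples are paired, and a fit with the replicate number as a block is given below. By a chi-square test of counts, replicates differed beyond counting noise, and each was kept as its own sample. The labels do not say that replicates are separate animals, so p-values reflect only the variation among these samples, which may be technical. Floors of 3 counts cover counting error only.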

Additional observations from a re-analysis of the deposited data

How the results depend on the processing

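No member was called under any of the 14 alternatives to the reported fit, and 13 of the 37 kept the sign of their log2 fold change in each of the 13 that refit it. Over all genes the calls, 4 higher and 5 lower, were 31 and 276 with DESeq2, 6 and 27 with limma-voom, 111 and 782 with no low-count filter, 7 and 39 at an adjusted p under 0.1, and from 3 to 45 higher and from 1 to 812 lower with a library left out, the largest without knockout library 1. Members with an unadjusted p under 0.05 numbered 0 as reported, 1 with DESeq2 (Hspe1) and 2 with no filter (Hspe1 and Hspb1). The shares of all genes in these fits were 10.5%, 10.3% and 8.14%. With a library left out such members numbered 0 to 2, and the share of all genes ran from 6.47% to 16.6%. With the replicate number as a block, 2 genes were higher and 2 lower, and no member was called. Deviations of each knockout library correlated best with those of the control of its own number, at 0.0905 to 0.117. These low values do not decide whether the samples are paired, and the design does not state it. The block turned Hspa1a to -0.62 and Hspa1b to -0.046. Limma-voom turned Hspa1a to -0.41. Ern1, near 0, was at 0.0014 with RLE factors, 0.0033 with upper-quartile factors, 0.0015 with DESeq2 and 0.0027 with no filter. With each library left out, the ER folding median ran from 0.027 to 0.15 and the ER degradation median from 0.010 to 0.19. The same removals turned the sign of 24 members, whose values ran for ER genes from -0.0070 to 0.11 (Hspa5), -0.022 to 0.17 (Hsp90b1), -0.0020 to 0.14 (Pdia3), -0.047 to 0.094 (Pdia4), -0.060 to 0.19 (Pdia6), -0.00027 to 0.22 (Dnajb9), -0.35 to 0.53 (Sdf2l1), -0.18 to 0.024 (Sel1l), -0.062 to 0.14 (Syvn1), -0.089 to 0.27 (Atf6), -0.17 to 0.20 (Ern1) and -0.11 to 0.20 (Eif2ak3). For cytosolic genes they ran from -0.22 to 0.022 (Hsf1), -1.98 to 1.93 (Hspa1a), -1.44 to 2.23 (Hspa1b), -0.077 to 0.15 (Hspa8), -0.10 to 0.070 (Hspa4), -0.20 to 0.29 (Hsph1), -0.24 to 0.60 (Hspb1), -0.18 to 0.073 (Hspb8), -0.00041 to 0.41 (Dnaja1), -0.058 to 0.70 (Dnajb1), -0.30 to 0.15 (Bag3) and -0.073 to 0.23 (Chordc1). Why single libraries had this effect was not tested. Sdf2l1 rested on 25 to 64 counts per library, and the 95% intervals of the Hspa1 pair were the widest of the 37.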
